A study of Mus musculus with 14 samples.

Results

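The GATA factors Gata4, Gata5 and Gata6 are the zinc finger transcription factors of the gut named for the DNA letters they bind, GATA. They were selected by gene symbol and are 3 of the 36401 genes in the count tables. In textbook accounts Gata4 marks the duodenum and jejunum and is low in the ileum. There it helps to keep jejunal genes of digestion and fat uptake on and ileal genes of bile acid uptake off. Gata6 is made along the whole small intestine, where it acts in crypt cells and in the choice between absorptive and secretory fates. Gata5 is the least studied of the 3 in the gut. GATA factors work with cofactors of the FOG family and beside other gut factors such as CDX2 and the HNF1, HNF4 and FOXA proteins.

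RNA sequencing libraries were made from C57Bl6 mice labelled male and aged 6 to 12 weeks, with neither a gene alteration nor a treatment named. Ileum was taken 5 to 8 cm from the cecum and jejunum 5 to 8 cm from the pylorus. In each region there were 3 libraries of crypt cells, 2 of cells chosen by LGR5, a receptor of crypt base stem cells, and 2 of cells sorted as CD44+/CD24lo/CD166+ (called CD166 below). How LGR5 cells were detected is not given in the sources used here, and the labels do not say whether libraries came from separate mice, so p-values measure the spread between these 14 libraries. Sorted cells went straight into lysis buffer per the study's design text, while a culture protocol in Matrigel is also attached to the samples. Expected counts summed to 6295828 to 20380369 per library. Counts of the members ran from 87 to 5944 for Gata4, from 245 to 1684 for Gata5 and from 392 to 2733 for Gata6, so that none was near the limit of counting in any library. Levels are given as CPM, the count divided by the library total and multiplied up to a common scale, after TMM scaling.

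Before the members are compared, features of the libraries that bear on them are given. The library labelled ileum crypt 3 was close to jejunum crypt 1, and the pair stood apart from the other libraries of both regions. Fabp6, an ileal carrier of bile acids, was at 25.8 CPM in the former and 25.1 CPM in the latter, against 0.482 to 1.26 CPM in the other 6 jejunal libraries and 48.4 to 2688 CPM in the other 6 ileal ones. Osr2, a factor higher in the ileum, was at 95.9 and 98.9 CPM in the pair, within the 90.5 to 160 CPM of the other ileal libraries and above the 5.39 to 20.5 CPM of the other jejunal ones. Hoxb9 was at 0.229 and 0.275 CPM, within the 0 to 1.56 CPM of the other jejunal libraries and below the 19.4 to 82.8 CPM of the other ileal ones. Results between regions are therefore repeated leaving out the former, and Gata4 without both of the pair, a choice made after the data were seen. Jejunum crypt 2 had the lowest summed level of 7 epithelial markers, 4926 CPM against 5890 to 11828 CPM in the others, and the highest sum of 11 blood and immune cell markers, 8240 CPM against 17.2 to 2346 CPM. The summed level of 9 stem cell markers was 9654 to 20515 CPM in the sorted libraries and 1433 to 5631 CPM in the crypt libraries. Although all libraries are labelled male, Xist, the RNA that coats an inactive X chromosome, stood at 201 to 1675 CPM in the 8 sorted libraries, ileum crypt 1 and jejunum crypt 2, and at 2.78 to 3.12 CPM in the other 4 crypt libraries.

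Gata4 was the member that separated the regions. In jejunal libraries it ranged from 88.3 to 324 CPM, and in 6 of the 7 ileal libraries from 8 to 45.4 CPM. Gata6 levels overlapped between the regions in every population. Gata5 was 1.39-fold higher in the ileum in a fit of the sorted cells alone and was not called over all libraries. The share of Gata4 in the GATA mRNA, per gene length, had a median of 48.9% in the jejunum and was 2.53% to 6.3% in ileal sorted cells.

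Gata4 (ENSMUSG00000021944, chromosome 14 on GRCm38) was read at 28 CPM in ileum crypt 1 and 45.4 CPM in ileum crypt 2. In the library labelled ileum crypt 3 it reached 233 CPM. The jejunum crypt libraries held 229, 88.3 and 324 CPM. Ileum crypt 1 and 2 lay below every jejunal library, and the library labelled ileum crypt 3 was level with jejunum crypt 1. In LGR5 cells Gata4 was at 8 and 17.4 CPM in ileum and at 168 and 188 CPM in jejunum. In CD166 cells it was at 11.8 and 11.5 CPM in ileum and at 225 and 177 CPM in jejunum. In both sorted populations the ileal and jejunal levels did not overlap, with every ileal library lower, a pattern shown by 8.2% of the 14750 genes tested. Without the library labelled ileum crypt 3 the same held in all 3 populations, as for 3.53% of genes, and with it the crypt levels overlapped.

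**Figure D1:**
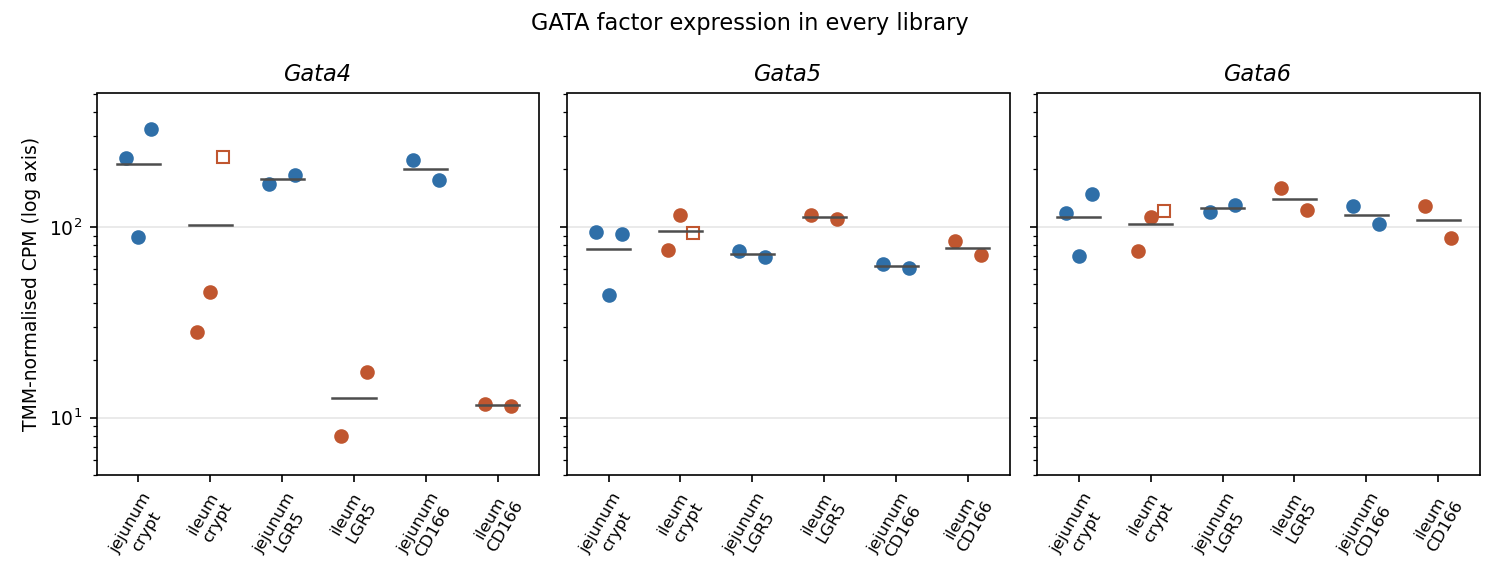
Each point is 1 library, with the TMM-normalised CPM on a log axis. Jejunum is blue, ileum is orange, the bar is the group mean and the open square is the library labelled ileum crypt 3. Gata4 spans 8 to 324 CPM with ileal sorted libraries lowest, while Gata5 stays within 44 to 116 CPM and Gata6 within 70.5 to 159 CPM.

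With the 3 populations weighted equally, Gata4 was 7.97-fold lower in the ileum (log2 difference -2.99 ± 0.50 SE, 95% interval -4.08 to -1.91, edgeR adjusted p = 0.00962). By this test 5.01% of 14750 genes were called between the regions (adjusted p under 0.05), 2.02% lower and 2.99% higher in the ileum. Gata4 ranked 120 by p among them. Without the library labelled ileum crypt 3 it was 11.2-fold lower (-3.49 ± 0.33, adjusted p = 0.000172), in a fit that called 8.61% of 14740 genes, 4.14% lower and 4.47% higher. Without that library and jejunum crypt 1 together the value was -3.47 ± 0.34 (adjusted p = 0.00028), and without jejunum crypt 1 alone -2.98 ± 0.52 (adjusted p = 0.0106). In the 8 sorted libraries alone it was 15.6-fold lower (-3.97 ± 0.23, adjusted p = 6.28e-06), with 10.4% of genes called. The call was kept in each of the 14 fits that left out 1 library, with adjusted p-values from 0.000172 to 0.0485. In bulk samples fewer cells that make Gata4 and less Gata4 RNA per cell cannot be told apart.

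Within LGR5 cells Gata4 was 14-fold lower in the ileum by value (log2 -3.81 ± 0.94 SE), but it missed the threshold (edgeR adjusted p = 0.083, with 0.698% of genes called). Within CD166 cells the value was -4.10 ± 0.95, a 17.2-fold difference that missed it too (adjusted p = 0.192, with 0.0203% of genes called). Both values stayed at -3.81 and -4.10 without the library labelled ileum crypt 3, whose spread enters the same fit. Their SE then fell to 0.58 and 0.59, and both were called (adjusted p = 0.0118 and 0.0128, with 2.42% and 0.76% of genes called). In the sorted libraries alone both were called as well (adjusted p = 0.00014 in LGR5 cells, with 8.85% of genes called, and 0.000149 in CD166 cells, with 3.91%). Within crypt cells edgeR called 0 of 14750 genes (0%). At an unadjusted p under 0.05 there were 1899, and limma-voom called 0 and DESeq2 323. The crypt value of Gata4 was -1.07 ± 0.69 (adjusted p = 0.559) with all libraries. When the library labelled ileum crypt 3 was left out, the value was -2.55 ± 0.52, or 5.85-fold lower, and was called (adjusted p = 0.0259, with 4.17% of genes called). Without both that library and jejunum crypt 1 it was -2.50 ± 0.56 (adjusted p = 0.0312).

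Among crypt libraries with high Xist, Gata4 was 28 CPM in ileum and 88.3 CPM in jejunum. Among those with low Xist it was 45.4 and 233 CPM in ileum, the higher value in the library labelled ileum crypt 3, and 229 and 324 CPM in jejunum. The 8 sorted libraries all had high Xist. The test of whether the region difference varied among the populations gave Gata4 an unadjusted p = 0.0293 and an edgeR adjusted p = 0.859, with 0.0136% of genes called. The unadjusted p of this edgeR test was 0.104 when the library labelled ileum crypt 3 was left out. A larger Gata4 difference in sorted cells than in crypt cells was therefore not shown.

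Gata6 (ENSMUSG00000005836, chromosome 18) was present in every library at 70.5 to 159 CPM. In crypt cells it was at 74.9, 113 and 121 CPM in ileum, the last in the library labelled ileum crypt 3. The jejunal crypt libraries held 118, 70.5 and 149 CPM. In LGR5 cells it was at 159 and 122 CPM in ileum and 119 and 131 CPM in jejunum. In CD166 cells it was at 129 and 87.5 CPM in ileum and 128 and 104 CPM in jejunum. The regions overlapped in all 3 populations, and the lowest value was that of jejunum crypt 2. The difference over all populations was log2 -0.02 ± 0.19 SE with a 95% interval from -0.43 to 0.39 (edgeR adjusted p = 0.992). Leaving out the library labelled ileum crypt 3 gave -0.07 ± 0.19. By population the values were -0.13 ± 0.28 in crypt, 0.16 ± 0.34 in LGR5 and -0.10 ± 0.34 in CD166 cells, and none was called. A difference of Gata6 between regions as large as that of Gata4 lies outside this interval, while one of up to -0.43 or 0.39 lies within it.

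Gata5 (ENSMUSG00000015627, chromosome 2) was at 75.6, 116 and 92.9 CPM in the ileum crypt libraries and at 94.3, 44 and 91.8 CPM in the jejunum crypt libraries. In LGR5 cells it was at 116 and 110 CPM in ileum and 74.7 and 69.3 CPM in jejunum. In CD166 cells it was at 83.9 and 71.1 CPM in ileum and 63.8 and 60.9 CPM in jejunum. Crypt levels overlapped, but in both sorted populations every ileal library was higher, as for 8.24% of genes. Over all populations the difference was log2 0.42 ± 0.17 SE (95% interval 0.05 to 0.79, unadjusted p = 0.0294), which missed the threshold (edgeR adjusted p = 0.209). It was 0.43 ± 0.18 (adjusted p = 0.223) when the library labelled ileum crypt 3 was left out. In the sorted libraries alone Gata5 was 1.39-fold higher in the ileum and was called (0.47 ± 0.11, adjusted p = 0.0162, where 10.4% of genes were called). Within LGR5 cells the value was 0.65 ± 0.31 in the fit of all libraries (adjusted p = 0.386). It was 0.62 ± 0.16 in the sorted libraries alone (adjusted p = 0.0295). The other values by population, 0.30 ± 0.25 in crypt and 0.31 ± 0.31 in CD166 cells, were not called. An antisense gene, Gata5os, overlaps Gata5 and had 1.03 to 2.83 CPM. The kit is not stated to keep strand, so reads of the pair cannot be told apart where they overlap.

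**Figure D2:**
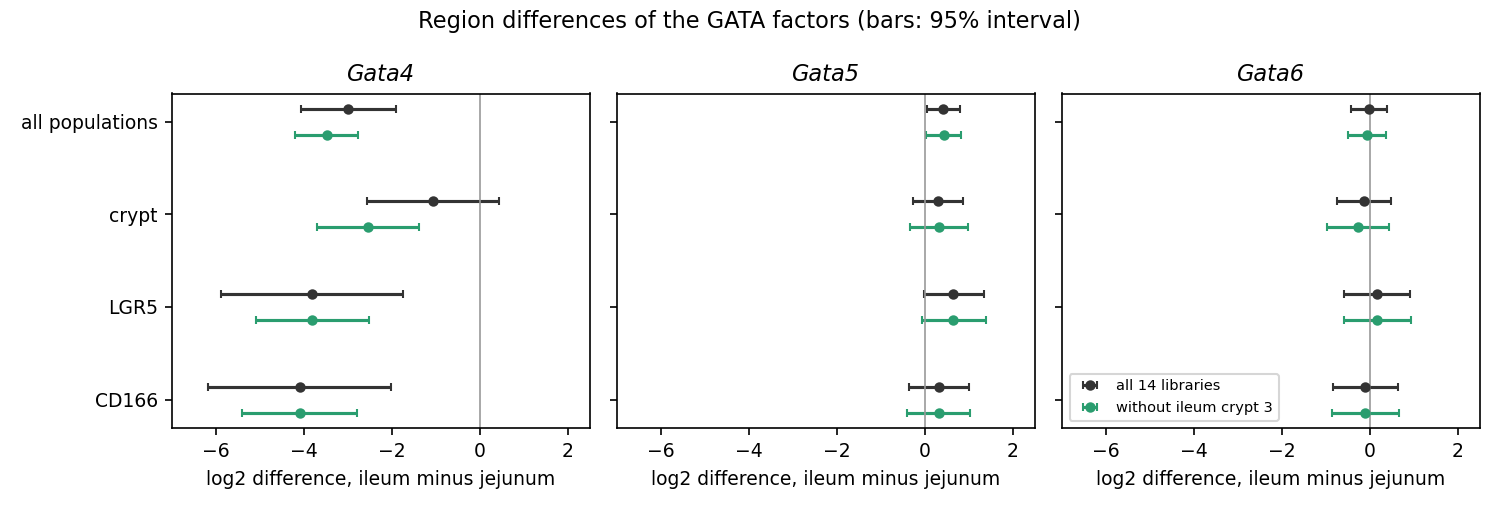
The x axis is the log2 difference, ileum minus jejunum, from the edgeR fit, with points for the estimate and bars for the 95% interval. Black marks all 14 libraries and green the fit without the library labelled ileum crypt 3. Over all populations the Gata4 intervals lie below 0, from -4.08 to -1.91 with all libraries, and the Gata6 intervals span 0.

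Markers of other cell types differed between the regions beside Gata4. Of 8 goblet cell genes 4 were higher in the ileum over all populations and 0 lower, and of 8 Paneth cell genes 3 were higher and 0 lower. Of all tested genes 2.99% were higher and 2.02% lower. The summed goblet cell level was 8095 to 23735 CPM in ileum LGR5 cells and 1805 to 3266 CPM in jejunum LGR5 cells, without overlap. In CD166 cells it overlapped, at 5456 to 10730 CPM in ileum and 5202 to 8849 CPM in jejunum. The summed Paneth cell level was 8815 to 10322 CPM in ileum and 5368 to 7631 CPM in jejunum LGR5 cells, and it overlapped between the regions in CD166 and crypt cells. Of 8 enteroendocrine genes 1 was lower in the ileum, and their sum in CD166 cells was 412 to 1122 CPM in ileum and 3366 to 3405 CPM in jejunum. None of the 9 stem cell genes was called between the regions by edgeR, where 5.01% of all tested genes were. Of the 9, 1 had an unadjusted edgeR p under 0.05, limma-voom called 0 and DESeq2 1. The part of these cell types in the region differences of the members was not tested.

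All 3 members were lowest in jejunum crypt 2 among the jejunal libraries. That library was also lowest in Cdx2, the master factor of intestinal epithelium, at 133 CPM against 275 to 417 CPM in the other 13 libraries. The part of its cell makeup in the members' values was not tested. Without it the differences over all populations were log2 -3.12 ± 0.50 SE for Gata4, 0.33 ± 0.10 for Gata5 and -0.11 ± 0.15 for Gata6, with edgeR adjusted p-values of 0.0111, 0.0781 and 0.755. The crypt value of Gata5 was then 0.03 ± 0.17 in place of 0.30 ± 0.25.

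Because all 3 members were read in the same library, their ratios do not depend on library scaling. The log2 ratio of Gata4 to Gata6 was 0.32 to 1.12 in the 7 jejunal libraries. It was -1.42 and -1.32 in ileum crypt 1 and 2, and 0.94 in the library labelled ileum crypt 3. In ileal LGR5 cells it was -4.31 and -2.80, and in ileal CD166 cells -3.45 and -2.92. Every ileal library except the one labelled ileum crypt 3 was thus below every jejunal one. The mean difference between regions was -3.15 (exact permutation test within populations, two-sided, 720 regroupings, p = 0.00556, adjusted p = 0.00833 over the 3 pairs). For Gata4 over Gata5 it was -3.61 (exact permutation p = 0.00833, adjusted p = 0.00833). The smallest p these regroupings allow is 0.00278.

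Gata5 also differed from Gata6. The log2 ratio of Gata5 to Gata6 was -0.39 to 0.04 in ileum crypt cells and -0.70 to -0.32 in jejunum crypt cells. It was -0.45 and -0.14 against -0.68 and -0.92 in LGR5 cells, and -0.63 and -0.30 against -1.01 and -0.78 in CD166 cells, ileum given before jejunum. In each sorted population the ileal libraries were higher with no overlap, while in crypt cells the library labelled ileum crypt 3 overlapped jejunum crypt 1. The difference was 0.45 in crypt, 0.50 in LGR5 and 0.43 in CD166 cells, with a mean of 0.46 (exact permutation test, two-sided, p = 0.00556, adjusted p = 0.00833). The 3 ratio differences, when the library labelled ileum crypt 3 was left out, were -3.40, -3.91 and 0.51. In the sorted libraries alone they were -4.02, -4.48 and 0.47, each with an exact permutation p of 0.0556, the smallest that 36 regroupings allow.

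**Figure D3:**
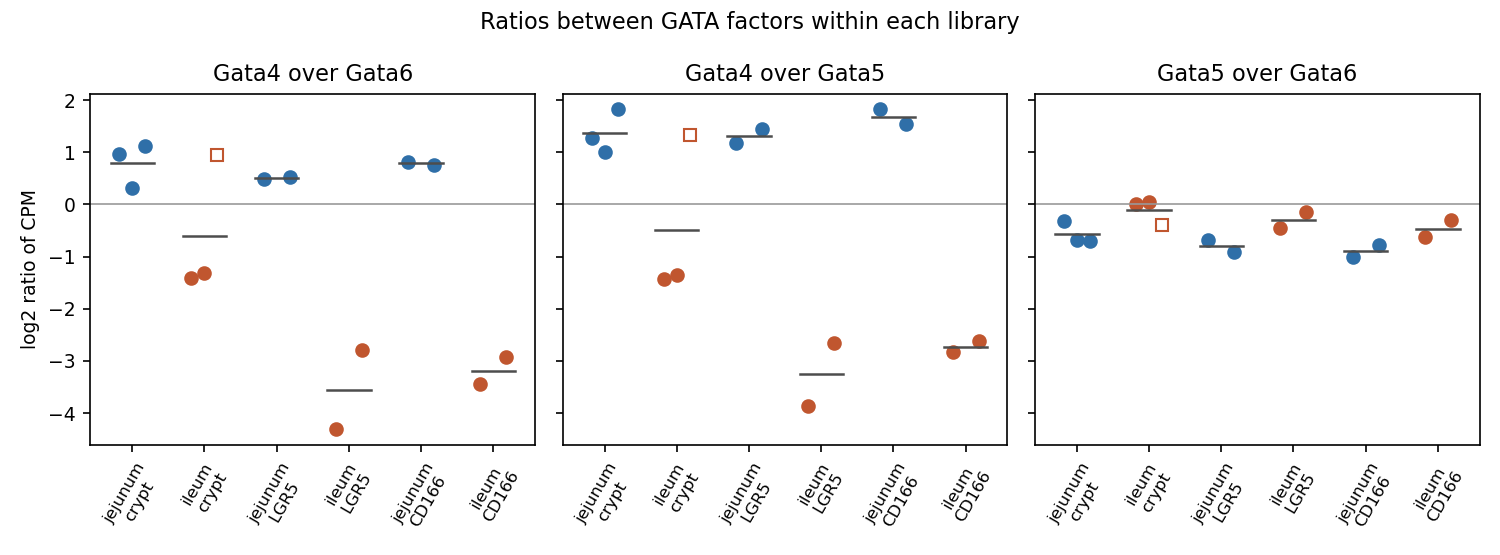
Each point is the log2 ratio of the CPM of a pair of GATA genes in 1 library, with jejunum in blue, ileum in orange, group means as bars and the library labelled ileum crypt 3 as an open square. Both ratios with Gata4 lie above 0 in all 7 jejunal libraries and below 0 in 6 ileal ones, and the ratio of Gata5 to Gata6 lies between -1.01 and 0.04.

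To compare levels between the members, CPM was divided by the length of the merged exons, 3.64 kb for Gata4, 3.28 kb for Gata5 and 3.23 kb for Gata6 in GENCODE M21. That annotation is on GRCm38 and not on the mm9 build named in the submitters' notes, so levels per kb are approximate. In the jejunum Gata4 led, with group means of 58.7 (crypt), 48.9 (LGR5) and 55.2 (CD166) CPM per kb, ahead of Gata6 at 34.7, 38.7 and 36 and Gata5 at 23.4, 22 and 19. Gata4 made up 40.7% to 54.6% of the summed level per kb in the 7 jejunal libraries, with a median of 48.9%. In the ileal libraries other than the one labelled ileum crypt 3 Gata4 was last of the 3, and Gata6 stayed ahead of Gata5 in 5 of the 6. Gata4 made up 14.3% and 15% in crypt cells, 2.53% and 6.3% in LGR5 cells and 4.71% and 6.1% in CD166 cells. Gata6 then held 42.2% to 58.1% and Gata5 37.2% to 44.2%. The library labelled ileum crypt 3 had 49.3% Gata4, close to the 49.1% of jejunum crypt 1.

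**Figure D4:**
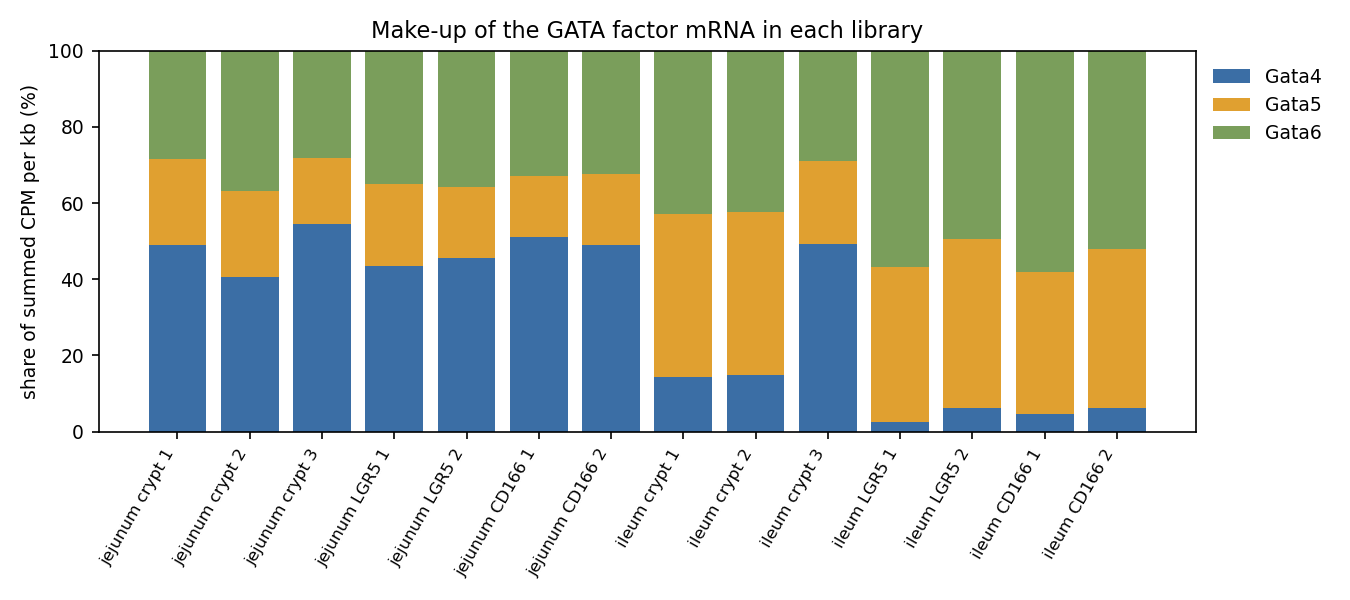
Each bar is 1 library, and its parts are the shares, in percent, of Gata4, Gata5 and Gata6 in their summed CPM per kb. Gata4 fills 40.7% to 54.6% of the jejunal bars and 2.53% to 15% of the ileal bars other than that of the library labelled ileum crypt 3.

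The order of the 6 groups differed by member. For Gata4 the means were 214 ± 119 CPM (SD, n = 3) in jejunum crypt, 201 ± 33.5 (n = 2) in jejunum CD166 and 178 ± 14 (n = 2) in jejunum LGR5 cells, and these neighbours overlapped. Ileum crypt followed at 102 ± 114 CPM (n = 3), or 36.7 ± 12.3 without the library labelled ileum crypt 3. Ileum LGR5 at 12.7 ± 6.67 and ileum CD166 at 11.7 ± 0.198 CPM (n = 2 each) were last and overlapped each other. For Gata5 ileum LGR5 cells were highest at 113 ± 4.17 CPM and jejunum CD166 cells lowest at 62.3 ± 2.06. Of its neighbours in the order, jejunum CD166 alone did not overlap the group above it, jejunum LGR5 at 72 ± 3.78 CPM. For Gata6 the means ran from 140 ± 26.5 CPM in ileum LGR5 to 103 ± 24.8 CPM in ileum crypt cells, and each pair of neighbours overlapped. From the lowest to the highest library Gata4 spanned 40.5-fold, Gata5 2.64-fold and Gata6 2.26-fold.

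Between cell populations Gata4 alone was called, in 1 contrast. With the regions weighted equally, Gata4 was 3.11-fold lower in LGR5 than in crypt cells (log2 -1.64 ± 0.58 SE, edgeR adjusted p = 0.0496), in a contrast where 31.5% of genes were called. The value was -0.90 ± 0.36 and the call was lost (adjusted p = 0.0886, with 26.6% of genes called) when the library labelled ileum crypt 3 was left out. Of the 14 fits that left out 1 library, it was kept in those without ileum crypt 1, ileum crypt 2 or jejunum crypt 2. In the ileum alone Gata4 differed between LGR5 and crypt cells by -3.01 ± 0.88 (adjusted p = 0.0683, with 5.61% of genes called), or -1.53 ± 0.54 without that library (adjusted p = 0.158). In the jejunum the difference was -0.27 ± 0.76 (adjusted p = 0.827, with 23.1% of genes called), and its sign turned in other fits. The values for CD166 against crypt cells were close: -1.61 ± 0.57 over both regions (adjusted p = 0.0537, with 30.1% of genes called) and -0.87 ± 0.36 without that library (25.3% called). They were -3.13 ± 0.88 in ileum (8.37% called) and -0.09 ± 0.76 in jejunum (18% called), the latter again with no stable sign. The ileal value was not called with all libraries. Over the 14 fits that left out 1 library it ran from -3.58 to -1.65 and was called in 3.

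Gata5 differed by log2 0.08 ± 0.20 SE and Gata6 by 0.30 ± 0.22 between LGR5 and crypt cells, and by -0.30 ± 0.20 and 0.06 ± 0.22 between CD166 and crypt cells. None of these was called by edgeR. Without jejunum crypt 2, Gata5 was lower in CD166 than in crypt cells by test (-0.47 ± 0.12, adjusted p = 0.0133, with 35.3% of genes called). Between CD166 and LGR5 cells, where 1.61% of genes were called, edgeR called 0 of the 3 members. At an unadjusted p under 0.05 there were 0, and limma-voom and DESeq2 called 0 as well. The differences were 0.03 ± 0.60 for Gata4, -0.38 ± 0.22 for Gata5 and -0.24 ± 0.24 for Gata6. In LGR5 against crypt cells 9 of 9 listed stem cell genes were higher, where 13% of genes were, and 8 of 8 enterocyte genes lower, where 18.5% were. Blood and immune cell genes were lower too, 7 of 11, as were 4 of 8 Paneth cell genes and 5 of 10 tested genes of mesenchyme and muscle. In CD166 against crypt cells, where 13.6% of genes were higher and 16.5% lower, 9 of 9 stem cell genes, 5 of 5 tuft cell genes, 5 of 8 enteroendocrine genes and 4 of 8 Paneth cell genes were higher. In that contrast 8 of 8 enterocyte genes and 7 of 11 blood and immune cell genes were lower. Of 4 genes of the sort markers 3 were higher. Cd24a was among them (1.62 ± 0.28, edgeR adjusted p = 0.00178), although the sort is named CD24lo. Alcam, which encodes CD166, was not called (0.02 ± 0.16, edgeR adjusted p = 0.936). These are RNA levels, and surface protein was not measured here. Between CD166 and LGR5 cells 7 of 8 enteroendocrine and 4 of 8 Paneth cell genes were higher in CD166 cells. All sorted libraries but only some crypt libraries were high in Xist. The part of these cell types, or of Xist level, in the population values of the members was not tested.

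The other genes of the GATA family were nearly silent. Gata1, Gata2 and Gata3, factors of blood cells, reached at most 0.36, 0.899 and 9.17 CPM. The highest value of each was in jejunum crypt 2, the library highest in blood and immune cell markers. Zfpm2, which encodes the cofactor FOG2, was at most 0.36 CPM. Zfpm1, which encodes the cofactor FOG1, was at 29.1, 69 and 118 CPM in ileum crypt and 122, 63.8 and 232 CPM in jejunum crypt cells. It was at 81.3 and 60.9 against 178 and 160 CPM in LGR5 cells, and at 75.7 and 46.5 against 167 and 121 CPM in CD166 cells, ileum given before jejunum. Ileal levels of Zfpm1 lay below jejunal ones in both sorted populations, as for 8.2% of the tested genes, and overlapped in crypt cells. It differed by log2 -1.15 ± 0.34 SE over all populations (edgeR adjusted p = 0.0814). When the library labelled ileum crypt 3 was left out, it was 2.52-fold lower in the ileum and called (-1.34 ± 0.31, edgeR adjusted p = 0.0258). That fit kept jejunum crypt 1 and called 8.61% of genes. Of this list of 9 genes 6 passed the filter on low counts. With all libraries edgeR called 0 of these 6, where it called 5.01% of all tested genes. Zfpm1 alone had an unadjusted p under 0.05, and limma-voom called 0 and DESeq2, which called 9.56% of genes, 1. The median of the list was -0.08, against -0.01 for all tested genes.

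Of 14 partner factors of the gut epithelium edgeR also called 0 between the regions, where 5.01% of all tested genes were called. At an unadjusted p under 0.05 there were 4, while limma-voom called 1 and DESeq2 3, and the list's median was 0.15. Hnf4a, a nuclear receptor of absorptive cells, differed by -0.02 ± 0.23 SE and Cdx2 by 0.21 ± 0.21. The edgeR fit without the library labelled ileum crypt 3 kept jejunum crypt 1 and called 8.61% of genes. In it 2 were higher in the ileum, the pioneer factor gene Foxa1 (1.19 ± 0.27, adjusted p = 0.0218) and Klf4 (0.91 ± 0.23, adjusted p = 0.0394). Hnf4g was then lower (-0.58 ± 0.11, adjusted p = 0.00707). Of 9 factors listed for position along the gut, 5 were higher and 3 lower, where 2.99% of all tested genes were higher and 2.02% lower. This list was chosen with earlier results of these data known, so its count is not an independent result. Beside Gata4 at -2.99 ± 0.50, the pancreatic and duodenal factor gene Pdx1 was lower (log2 -5.17 ± 0.82), as were the homeobox genes Onecut2 (-5.08 ± 0.83) and Meis2 (-3.37 ± 0.76). Meis2 was low in level, at 10.1 CPM in jejunum crypt 2 and at most 2.73 CPM in every other library. The zinc finger gene Osr2 was higher (2.26 ± 0.49).

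**Figure D5:**
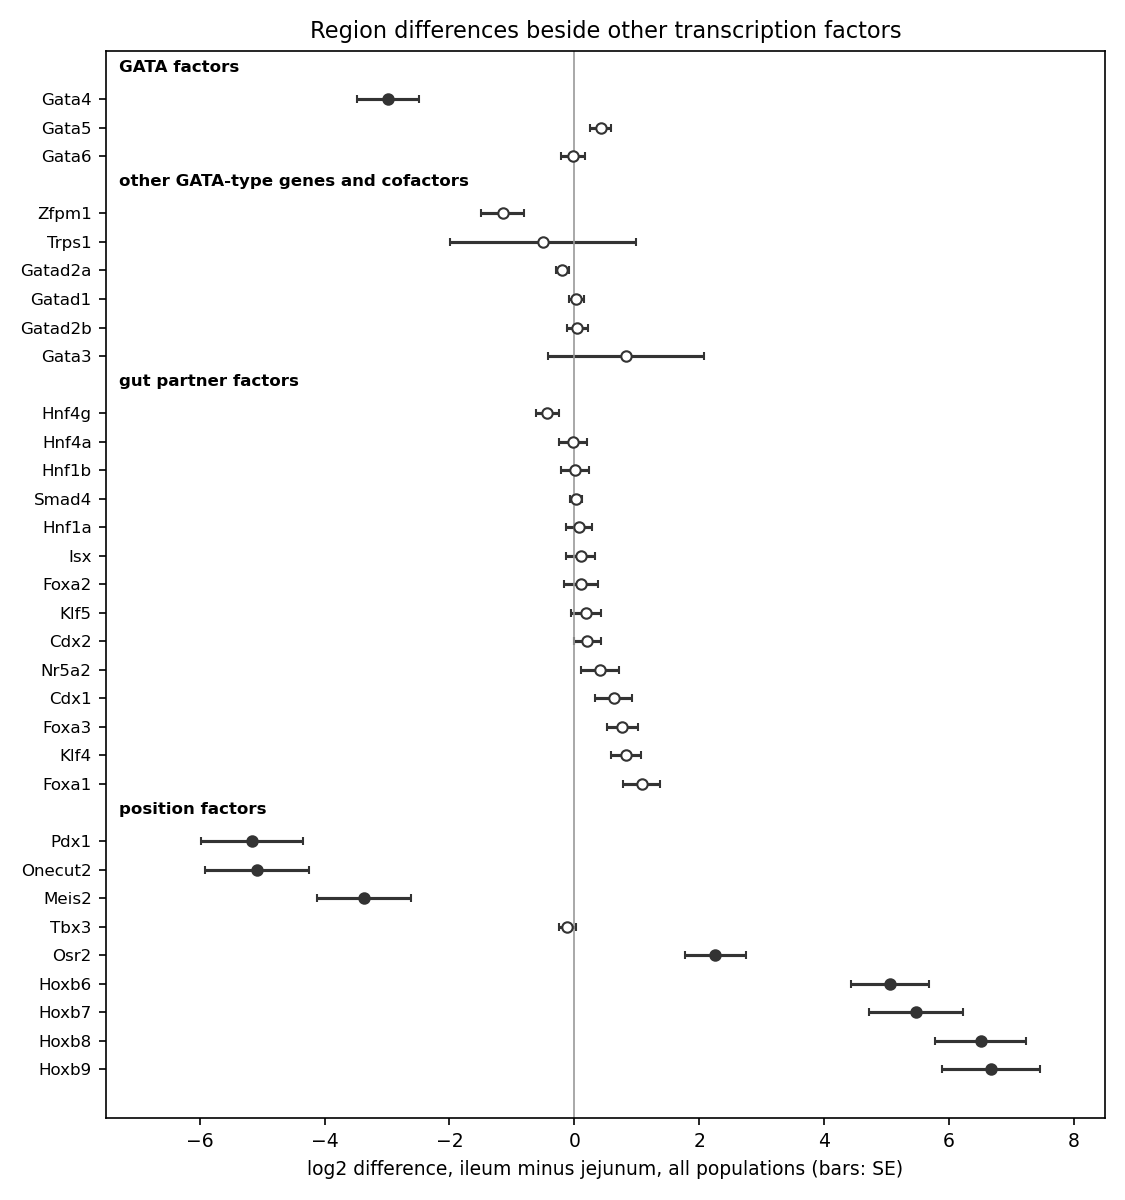
The x axis is the log2 difference, ileum minus jejunum, over all populations, with the SE as bars, and filled points passed the edgeR test. Gata4 at -2.99 is the filled point among the GATA factors, no cofactor or partner factor is filled, and 8 of the 9 position factors are. By this test 5.01% of all tested genes were called.

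Genes of jejunal and of ileal function were read beside the members, and whether GATA factors act on them was not tested. Lct, which encodes lactase, was at 112, 39.9 and 1237 CPM in ileum crypt and 1111, 877 and 1195 CPM in jejunum crypt cells. In LGR5 cells it was at 2.39 and 1.72 CPM in ileum and 53.4 and 20.6 CPM in jejunum, and in CD166 cells at 3.88 and 4.02 against 18.9 and 53 CPM. As for Gata4, the library labelled ileum crypt 3 was with the jejunal crypt libraries and the other ileal libraries were below the jejunal ones of their population. The latter held for 3.53% of tested genes. In jejunal sorted cells, where Gata4 stayed at 168 to 225 CPM, Lct was at 18.9 to 53.4 CPM. Of 15 genes listed for jejunal digestion and absorption, 13 were lower in the ileum, where 2.02% of all tested genes were, and 0 higher. Their median log2 difference was -2.76. Without that library all 15 were lower, where 4.14% of genes were, with a median of -3.43. The list was chosen with earlier results of these data known, so these counts are not an independent result. The difference was -2.84 ± 0.70 SE for Lct (edgeR adjusted p = 0.0405) and -3.22 ± 0.39 for Creb3l3, a factor of lipid metabolism (adjusted p = 0.00328). Markers of enterocytes differed too: of 8, 4 were lower and 1 higher in the ileum, where 2.02% of all tested genes were lower and 2.99% higher. Their summed level was 5845 to 13777 CPM in ileum crypt and 13982 to 16756 CPM in jejunum crypt cells. The part of this difference in the jejunal genes was not tested.

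A list of 10 genes of ileal bile acid and vitamin B12 uptake, chosen in the same way, had a median of 0.94. Of these 10, 6 were higher in the ileum, where 2.99% of genes were, and 0 lower. Fgf15, the ileal hormone of bile acid feedback, was among them (edgeR adjusted p = 0.021), at 43.5 and 14.5 CPM in ileum crypt 1 and 2, 0.457 CPM in the library labelled ileum crypt 3, 0.276 to 1.72 CPM in ileal sorted cells and at most 0.275 CPM in jejunum. Slc10a2, the apical bile acid transporter, was at 38.1, 17.5 and 0.915 CPM in ileum crypt and at 0.18 to 0.551 CPM in jejunum crypt cells. In LGR5 cells it was at 2.11 and 0.969 against 0.835 and 0.41 CPM, and in CD166 cells at 4.43 and 4.02 against 0.207 and 0.298 CPM. Its ileal levels were thus the higher ones in each population, narrowly so in LGR5 cells and in the library labelled ileum crypt 3.

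The promoters of Lct and Slc10a2 are shown because these genes differed in opposite directions between regions while Gata4 differed in the same direction as Lct. The sequences, credited to RefSeq on GRCm38.p6, are the 250 bases before the start of the gene, on the coding strand. Capitals mark matches, on either strand, to any of 4 motifs of 6 letters. They were AGATAA, its variant ending in G (AGATAG), its variant starting with T (TGATAA) and the variant with both changes (TGATAG), so that any run of 6 letters fits at most 1 of them, while matches at neighbouring places may overlap. The Lct window is chr1:128328319-128328568 and that of Slc10a2 chr8:5105288-5105537, both on the minus strand.

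Lct: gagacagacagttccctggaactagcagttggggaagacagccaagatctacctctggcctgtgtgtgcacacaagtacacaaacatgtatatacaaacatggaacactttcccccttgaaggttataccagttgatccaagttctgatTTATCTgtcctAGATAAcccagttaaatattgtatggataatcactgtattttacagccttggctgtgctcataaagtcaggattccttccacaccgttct

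Slc10a2: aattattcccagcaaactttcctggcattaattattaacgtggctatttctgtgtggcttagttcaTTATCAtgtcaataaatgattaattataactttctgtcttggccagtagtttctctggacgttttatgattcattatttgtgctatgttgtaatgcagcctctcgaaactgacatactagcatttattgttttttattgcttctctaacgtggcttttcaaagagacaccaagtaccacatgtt

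In Lct there were 2 matches, TTATCT beginning 101 bases and AGATAA beginning 90 bases before the start, the former being the latter read on the opposite strand. Slc10a2 had 1 match, TTATCA, beginning 184 bases before the start. No match was found in the windows of Fabp1 and Fabp6. Of the jejunal list 12 genes were in the table and 5 had a match (41.7%), and of the ileal list 8 were and 3 had one (37.5%). A match was found for 29.7% of all 27025 genes with a promoter there. A match describes letters and is not a measured site. Gata4 and Gata6 are not in the promoter table.

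The genes whose pattern over the 14 libraries was most like each member were found by the correlation of log2 CPM among 9896 well expressed genes. For Gata4 these were the phosphatase gene Cdc14b (Pearson r = 0.947), Ces2g (0.941), the ceramide kinase gene Cerk (0.938), the bicarbonate transporter gene Slc4a5 (0.936) and Ces1e (0.932). Ces2g and Ces1e are carboxylesterase genes with related genes in the same family. Whether reads were shared among such genes was not tested, so their values may be uncertain. For Gata5 they were Cant1 (0.936), the actin regulator gene Wasl (0.925), Dpagt1 (0.917), Klhl22 (0.910) and Rap2a (0.909). For Gata6 they were Wbp11 (0.951), Fiz1 (0.950), Prcc (0.934), Bcorl1 (0.927) and Ubqln1 (0.926). The members were less like each other, with r = 0.612 between Gata5 and Gata6, 0.116 between Gata4 and Gata6 and -0.316 between Gata4 and Gata5. These values describe 14 libraries in 6 groups that share region, cell population and depth.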

How the data were processed

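Single-end reads of 50 bases from TruSeq libraries were sequenced on an Illumina HiSeq, per the labels' protocols. The authors deposited 2 tables per library with 36401 genes: expected counts without scaling, and log2 values of the same counts relative to the gene's median. The 2 kinds differed by at most 1.2e-06 on the log2 scale, after 1 constant per library, over 8826 genes with more than 50 counts. The submitters' processing notes name mm9 and DESeq, with no step or version. Which aligner, counting program and annotation were used is not given in the sources used here.

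Counts were rounded, filtered with filterByExpr (minimum count 10, minimum total 15), scaled by TMM and fitted with edgeR 4.0.16 (R 4.3.3; robust quasi-likelihood, 6 group means). P-values were Benjamini-Hochberg adjusted over all tested genes and called under 0.05. The SE is the log2 difference divided by the square root of F. Recovery was checked on simulated data. Ratios were tested by exact permutation of region within population. Alternatives were DESeq2 1.42.0, limma-voom and limma on the log2 values (limma 3.58.1), other scalings and filters, the compared groups or sorted libraries alone, a replicate block, and leaving libraries out. Population contrasts within each region were added after the data were seen. Named genes are the members, genes of 18 lists and the 5 genes most correlated with each member (log2 CPM with a prior count of 2, mean at least 3). Members and lists were chosen with earlier results of these data known. For 1 listed gene of position along the gut, results are not reported here.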

Additional observations from a re-analysis of the deposited data

How the results depend on the processing

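Over the 14 fits that left out 1 library, the log2 region difference of Gata4 ran from -3.49 to -2.84 over all populations (called in 14), -2.55 to -0.62 in crypt cells (called in 1), -4.48 to -3.35 in LGR5 cells (1) and -4.29 to -3.93 in CD166 cells (1). In each of the last 3 the call came without the library labelled ileum crypt 3. LGR5 minus crypt ran from -2.02 to -0.90 and CD166 minus crypt from -1.84 to -0.87 for Gata4 (called in 3 each), and CD166 minus crypt from -0.47 to -0.21 for Gata5 (called in 1). Ratio differences ran from -3.40 to -2.89 for Gata4 over Gata6, -3.91 to -3.41 for Gata4 over Gata5 and 0.41 to 0.52 for Gata5 over Gata6, called in all 14. Gata4 within LGR5 cells passed the threshold with DESeq2 (-3.80), without the crypt libraries high in Xist (-3.81), without ileum crypt 3 and jejunum crypt 1 together (-3.81), in sorted libraries alone (-3.84) and in the compared groups alone (-3.81). Within CD166 cells it did so with DESeq2 (-4.11), without that pair (-4.10), in sorted libraries alone (-4.09) and in the compared groups alone (-4.09), and within crypt cells without that pair (-2.50). Gata5 passed over all populations without the Xist-high crypt libraries (0.38) and in sorted libraries alone (0.47), and within LGR5 cells under the same choices (0.65 and 0.62) and in the compared groups alone (0.66). For LGR5 minus crypt Gata4 missed the threshold with library totals (-1.48), no filter (-1.64), limma-voom (-1.26), the deposited log2 values (-1.32), without that pair (-0.87) and in the compared groups alone (-1.65). For CD166 minus crypt it passed with DESeq2 size factors (-1.65), DESeq2 (-1.65) and without the Xist-high crypt libraries (-2.02), as did Gata5 in the last (-0.51). In that last fit every crypt library was low and every sorted library high in Xist. Xist level and cell population cannot be told apart there. The 3 ratios could not pass in the sorted libraries alone (-4.02, -4.48 and 0.47), where the smallest exact permutation p is 0.0556. No value that was called, in the reported fit or under an alternative, changed sign. Values near 0 that were never called did. Over the fits leaving out 1 library, Gata6 ran from -0.13 to 0.06 over all populations, -0.37 to 0.13 in crypt, -0.04 to 0.34 in LGR5 and -0.43 to 0.15 in CD166 cells, and from -0.12 to 0.19 for CD166 minus crypt. Gata5 ran from -0.08 to 0.17 for LGR5 minus crypt, and Gata4 from -0.21 to 0.36 for CD166 minus LGR5. In the jejunum alone Gata4 ran from -0.66 to 0.16 for LGR5 minus crypt and from -0.49 to 0.34 for CD166 minus crypt. The sign also turned for Gata6 over all populations with library totals (0.01) and in sorted libraries alone (0.02), for Gata5 in LGR5 minus crypt (-0.13) and Gata6 in CD166 minus crypt (-0.16) without the Xist-high crypt libraries, and for Gata4 in CD166 minus LGR5 with library totals (-0.06). For Gata4 in the jejunum it turned in LGR5 minus crypt with limma-voom (0.01) and the replicate block (0.41), and in CD166 minus crypt with library totals (0.03), limma-voom (0.18), the deposited log2 values (0.05) and the replicate block (0.58). In the ileum alone Gata4 passed the threshold for LGR5 minus crypt under 4 alternatives and for CD166 minus crypt under 8, each without ileum crypt 1, without ileum crypt 2 and with DESeq2 among them. The causes of these changes were not tested. Deviations of same-numbered libraries correlated at -0.24, -0.48 and 0.38 in crypt, -0.38 in LGR5 and -0.58 in CD166 cells. In groups of 2 libraries the deviations mirror each other, so pairing in the opposite order gives the same values with the sign turned. Whether libraries of the regions were paired is thus not settled by these values. With the replicate block Gata4 was -3.81 within LGR5 and -4.10 within CD166 cells, both called, and -0.71 for LGR5 minus crypt, not called. Counts of genes called ran from 138 to 1440 over all populations (739 in the reported fit), 0 to 863 in crypt (0), 2 to 1574 in LGR5 (103), 0 to 571 in CD166 (3), 2421 to 5375 for LGR5 minus crypt (4639), 2769 to 5622 for CD166 minus crypt (4439), 85 to 575 for CD166 minus LGR5 (238) and 0 to 71 for the region by population test (2).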
